A study of Mus musculus with 36 samples.

Results

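The PAR-bZIP transcription factors Dbp, Tef and Hlf, together with 5 detoxification genes listed as their targets (Por, Alas1, Ces1g, Ces1d and Ces1f), were followed across 36 mouse kidneys. These 8 genes were chosen by name from the 53715 genes in the files, with earlier results of these data known. All 8 had enough reads to be tested among 15637 genes. Whole-kidney messenger RNA was sequenced in 4 groups of 9 mice, 1 library per mouse. The cKOt mice were Bmal1 lox/lox /Pax8-rtTA/LC1 animals, in which doxycycline given to adults removes Bmal1, listed under its symbol Arntl, which activates transcription in the core circadian clock. Pax8-rtTA places the doxycycline switch in the renal tubule, so the other cells of a whole kidney are not the target of the deletion. Controls were Bmal1lox/lox littermates, and all 4 groups drank doxycycline at 2 mg/ml for 2 weeks from an age of 8 weeks. After 1 week, mice of both genotypes were injected daily for 5 days with PBS (vehicle) or with streptozotocin (STZ) at 50 mg/kg, a toxin of pancreatic beta cells used to induce type 1 diabetes. This gives the groups PBS-control and PBS-cKOt, and with STZ the groups STZ-control and STZ-cKOt. Tissue was collected at zeitgeber time 9 (hours after lights on), 8 weeks after injections ended. Only that time of day was sampled, so a change of level and a change of phase cannot be told apart.

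PAR-bZIP proteins are basic leucine-zipper factors with a proline- and acidic-rich domain. The clock drives Dbp through E-boxes, short DNA elements bound by BMAL1 with CLOCK, and the factors then bind D-boxes in their own targets. Nfil3 (E4BP4) is a related leucine-zipper protein that binds the same D-boxes and represses. In liver and kidney the PAR-bZIP factors are known as activators of detoxification genes, among them the electron donor of microsomal cytochromes P450 (Por), the first enzyme of heme synthesis (Alas1) and carboxylesterases, which hydrolyse esters and amides of drugs and lipids.

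Assigned reads ran from 16.89 M to 22.35 M across libraries, with a median of 20.13 M. Proximal tubule markers were abundant in all groups, with median summed levels between 12070 and 17250 counts per M reads (CPM). Arntl was higher in cKOt libraries, with 15.3 ± 1.47 CPM in PBS-cKOt and 1.90 ± 0.40 CPM in PBS-control (SD, n = 9 each). These values count reads over the whole gene and do not resolve the deleted part, so they separate the genotypes without measuring the deletion. One library went against its label in clock genes. In the library labelled STZ-control 2 Arntl stood at 13.4 CPM, inside the STZ-cKOt range of 13.0 to 17.1 CPM and outside the 1.18 to 2.64 CPM of the other 8 STZ-control libraries. Results that rest on STZ-control are therefore given with and without it where it matters.

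In PBS mice all 8 genes were lower in cKOt than in control (edgeR adjusted p under 0.05), where 12.5% of all tested genes were called lower and 10.9% higher. The falls ranged from 1.15-fold for Hlf to 5.46-fold for Ces1d. In STZ mice 7 of the 8 were lower in cKOt, all but Hlf, where 10.1% of tested genes were called lower and 9.52% higher. Their median log2 difference was −1.19 for the 3 factors and −0.84 for the 5 targets in PBS mice. The median over all tested genes was 0.0024. STZ changed fewer of them. In control mice 6 of the 8 were lower with STZ (all but Dbp and Alas1), where 5.93% of tested genes were called lower and 6.34% higher. In cKOt mice Ces1d and Ces1f were lower with STZ, 2 of the 8, where 5.63% of tested genes were called lower and 6.00% higher. None of the 8 was called higher in any of these comparisons. The comparisons share groups, so they are not independent of each other.

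**Figure D1:**
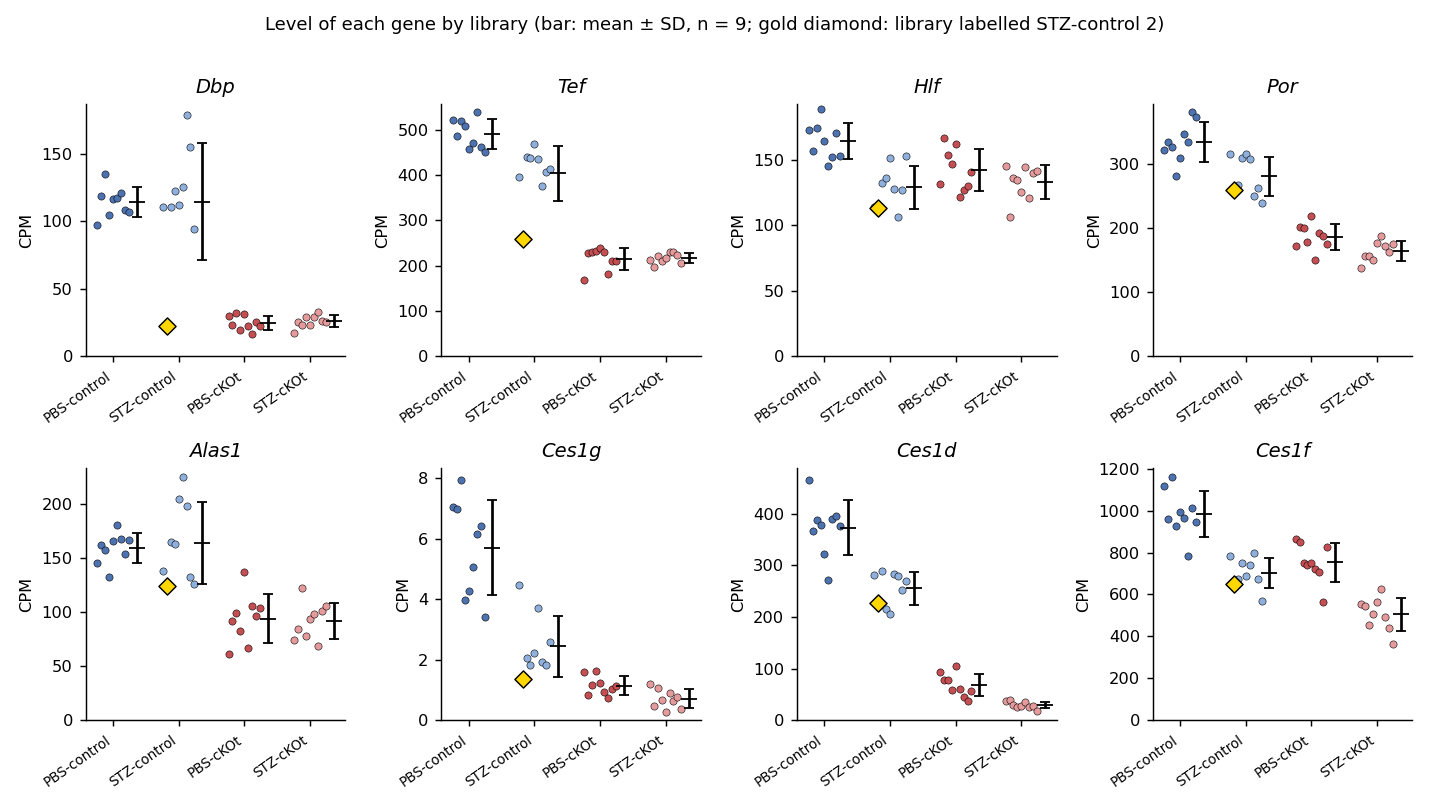
Level of each gene (CPM, vertical axis from 0) in every library of the 4 groups, with the mean ± SD of 9 libraries at the right of each group. The cKOt libraries of Dbp, Tef, Por and Ces1d lie below all PBS-control libraries, and the gold diamond, the library labelled STZ-control 2, lies among the cKOt libraries for Dbp but not for Ces1d.

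Dbp, the factor of the 3 with the strongest known clock rhythm (ENSMUSG00000059824, chr7:45705088-45710203, plus strand), ran from 97.1 to 135.3 CPM in PBS-control (median 116.3) and from 16.5 to 31.7 CPM in PBS-cKOt (median 23.1). The PBS groups did not overlap. With STZ its level ran from 22.1 to 179.0 CPM in control (median 112.2) and from 17.5 to 33.1 CPM in cKOt (median 25.5). These groups overlapped through STZ-control 2 alone, since the other 8 STZ-control libraries started at 94.1 CPM. Dbp was 4.63-fold lower in cKOt in PBS mice (log2 difference −2.21 ± 0.19, SE; edgeR adjusted p = 1.23e-11). In STZ mice the log2 difference was −2.15 ± 0.19 (edgeR adjusted p = 2.76e-11), and −2.29 without STZ-control 2. STZ itself gave log2 differences of 0.01 in control mice and 0.06 in cKOt mice (edgeR adjusted p = 0.987 and 0.886), with a 95% interval of −0.36 to 0.38 in control mice. Dbp shares 539 exonic bases, 18.01% of its exon length, with Sphk2 on the opposite strand, and the strand setting of the counting is not given in the sources used here. Sphk2 was higher in PBS-cKOt (31.9 ± 2.92 CPM) than in PBS-control (25.2 ± 2.12 CPM, SD, n = 9 each), the opposite direction to Dbp.

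Tef, the thyrotroph embryonic factor (ENSMUSG00000022389, chr15:81802421-81826863, plus strand), is shown with the stretch before one of its RefSeq start sites because it carries the E-box letters CACGTG that BMAL1 with CLOCK is known to bind. The stretch is chr15:81811164-81811413 of GRCm38.p6, plus strand, with the match in capitals, starting 138 bases before the start site.
Tef: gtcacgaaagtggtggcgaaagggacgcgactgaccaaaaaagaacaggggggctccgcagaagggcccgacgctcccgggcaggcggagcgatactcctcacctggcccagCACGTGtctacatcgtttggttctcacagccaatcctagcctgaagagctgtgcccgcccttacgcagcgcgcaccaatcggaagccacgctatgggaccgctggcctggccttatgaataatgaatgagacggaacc
A second Tef window, which lay wholly within annotated exons, held the same letters 127 bases before its start. CACGTG, which reads the same on both strands, occurred in 7.15% of all 32851 RefSeq windows of 300 bases (250 before and 50 after a start). RefSeq windows were found for 6 of the 8 genes, all but Ces1d and Ces1f. Of those 6 genes only Tef held CACGTG, and the Dbp window did not. The letters CACGTT and AGGTCA were also searched on both strands and matched in none of the 6. Sites outside the 300 bases were not searched. A match of letters is a description and does not show binding.

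Tef ran from 450.9 to 538.8 CPM in PBS-control (median 485.3) and from 169.0 to 238.3 CPM in PBS-cKOt (median 229.0). With STZ it ran from 258.1 to 469.3 CPM in control (median 413.8) and from 196.5 to 230.8 CPM in cKOt (median 217.3). Neither pair of groups overlapped, and the lowest STZ-control value was again STZ-control 2. The difference between genotypes was 2.29-fold in PBS mice (log2 −1.19 ± 0.08, SE; edgeR adjusted p = 1.2e-15). In STZ mice it was 1.87-fold (log2 −0.90 ± 0.07; edgeR adjusted p = 3.51e-12). With STZ Tef fell by 0.28 ± 0.07 on the log2 scale in control mice (edgeR adjusted p = 0.00984), a difference that was −0.22 without STZ-control 2 (edgeR adjusted p = 0.0138). In cKOt mice the log2 difference with STZ was 0.01 (edgeR adjusted p = 0.952). The difference between those 2 STZ effects, the interaction, was 0.29 on the log2 scale and did not pass the test (edgeR adjusted p = 0.364).

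Hlf, hepatic leukemia factor (ENSMUSG00000003949, chr11:90336536-90390895, minus strand), had the smallest genotype difference of the 8 genes in both treatments. It ran from 145.7 to 188.8 CPM in PBS-control (median 164.4) and from 122.0 to 167.2 CPM in PBS-cKOt (median 141.0). These groups overlapped, and the log2 difference of −0.21 ± 0.07 (SE) was close to the threshold (edgeR adjusted p = 0.0329). It did not pass with no filter on low counts, without 4 libraries set apart by the second principal component, or with limma voom (adjusted p = 0.0935, 0.0554 and 0.0521). With STZ Hlf ran from 106.2 to 153.4 CPM in control (median 128.2) and from 106.3 to 145.1 CPM in cKOt (median 136.0). Those groups overlapped almost fully, with a log2 difference of 0.04 and a 95% interval of −0.11 to 0.19 (edgeR adjusted p = 0.751). In control mice with STZ Hlf fell by 0.35 ± 0.07 on the log2 scale (edgeR adjusted p = 0.00116). Its log2 difference with STZ in cKOt mice was −0.10 (edgeR adjusted p = 0.418), and the interaction did not pass the test (adjusted p = 0.368).

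The balance of the 3 factors differed between genotypes. Per kb of exon, their summed level was 125.0 ± 6.51 CPM in PBS-control and 56.8 ± 5.65 CPM in PBS-cKOt (SD, n = 9 each). In STZ mice the sums were 108.9 ± 20.5 CPM per kb in control, with STZ-control 2 included, and 56.0 ± 3.22 CPM per kb in cKOt. Tef made up the largest mean share in every group, between 47.8% and 49.8%. Dbp went from 30.5% ± 2.33 of the sum in PBS-control to 14.5% ± 2.73 in PBS-cKOt, and Hlf from 19.7% ± 1.55 to 37.5% ± 2.22. The order per kb of exon was Tef, Dbp, Hlf in PBS-control and Tef, Hlf, Dbp in PBS-cKOt. This change of order depends on the division by exon length. In mean CPM Hlf stood above Dbp in both groups, at 164.4 against 114.1 in PBS-control and 142.4 against 24.7 in PBS-cKOt. Within libraries the log2 ratio of Dbp to Tef differed (cKOt minus control) by −1.03 in PBS mice and by −1.12 in STZ mice (exact permutation tests, two-sided, adjusted over 28 ratio tests, p = 0.000165 and 0.00105). Dbp to Hlf differed by −2.02 and −2.05 (exact permutation, adjusted p = 0.000165 and 0.00064). Tef to Hlf differed by −0.99 and −0.93 (exact permutation, adjusted p = 0.000165 in both). Without STZ-control 2 the differences of these 3 ratios in STZ mice were −1.32, −2.31 and −0.98 (exact permutation, adjusted p = 0.000128 in each). The smallest p that 9 against 9 libraries can give is 4.11e-05. The 3 genes thus differed unequally between genotypes, and Hlf alone did not pass the test in STZ mice. Between STZ and PBS in control mice the Dbp to Tef and Dbp to Hlf ratios did not pass with all libraries (exact permutation, adjusted p = 0.665 in both). Without STZ-control 2 both passed, higher with STZ by 0.34 and 0.46 on the log2 scale (exact permutation, adjusted p = 0.0159 and 0.0164). STZ-control 7 and 8 had the highest Dbp levels of their group (179.0 and 154.9 CPM). They also had its lowest slopes of log2 CPM on log2 exon length (−0.144 and −0.0795), a measure described below. The ratios were not recomputed without these libraries, so their part in this difference was not tested.

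**Figure D2:**
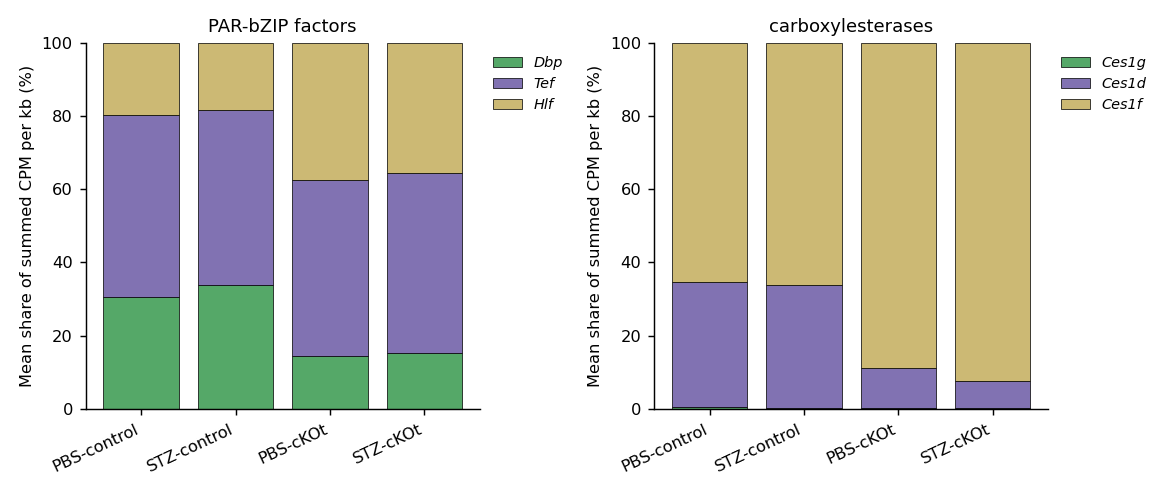
Mean share of each gene in the summed CPM per kb of exon (percent, vertical axis) of the 3 PAR-bZIP factors (left) and of the 3 carboxylesterases (right), in 4 groups of 9 libraries. Hlf takes 37.5% of the factor sum in PBS-cKOt against 19.7% in PBS-control, and Ces1f takes 88.8% of the carboxylesterase sum against 65.2%.

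Nfil3, the D-box repressor, moved in the opposite direction. It ran from 1.03 to 2.76 CPM in PBS-control (median 1.55) and from 11.4 to 27.3 CPM in PBS-cKOt (median 18.2), with no overlap. It was 11.1-fold higher in cKOt in PBS mice (log2 3.47 ± 0.26, SE; edgeR adjusted p = 1.88e-13) and 6.12-fold higher in STZ mice (log2 2.61 ± 0.24; edgeR adjusted p = 2.86e-11). Without STZ-control 2 the latter was 8.43-fold. In control mice Nfil3 rose with STZ by 1.15 on the log2 scale (edgeR adjusted p = 0.00515), and by 0.69 without STZ-control 2 (edgeR adjusted p = 0.0211). Per kb of exon Nfil3 stood at 0.862 CPM in PBS-control, below Dbp at 38.1 CPM. In PBS-cKOt it stood at 9.51 CPM per kb and Dbp at 8.24 CPM per kb. That order depends on exon length, since in mean CPM Dbp stood above Nfil3 in PBS-cKOt (24.7 against 19.3).

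The other clock repressors of the list were Nr1d1, Nr1d2, Bhlhe40 and Bhlhe41, which code for REV-ERB and DEC proteins. With Nfil3, 3 of 5 tested genes were lower and 1 higher in cKOt in PBS mice, and 4 were lower and 1 higher in STZ mice. Among all tested genes 12.5% were called lower and 10.9% higher in PBS mice, and 10.1% and 9.52% in STZ mice. Nr1d2 fell from 216.2 to 44.3 CPM in PBS mice (log2 −2.29, edgeR adjusted p = 4.15e-20), and Nr1d1 from 68.1 to 22.9 CPM (log2 −1.57, edgeR adjusted p = 6.03e-10). Bhlhe41 fell by 0.68 on the log2 scale (edgeR adjusted p = 0.000498). Bhlhe40 had a log2 difference of −0.13 in PBS mice (edgeR adjusted p = 0.481) and fell by 0.45 in STZ mice (edgeR adjusted p = 0.00864).

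Por, cytochrome P450 oxidoreductase (ENSMUSG00000005514, chr5:135670033-135735326, plus strand), ran from 281.7 to 381.9 CPM in PBS-control (median 334.2) and from 150.4 to 218.5 CPM in PBS-cKOt (median 188.4). With STZ it ran from 239.4 to 316.2 CPM in control (median 268.0) and from 137.1 to 187.3 CPM in cKOt (median 162.7). Neither pair of groups overlapped. Por was 1.796-fold lower in cKOt in PBS mice (log2 −0.84 ± 0.07, SE; edgeR adjusted p = 2.33e-12) and 1.71-fold lower in STZ mice (log2 −0.78 ± 0.07; edgeR adjusted p = 2.36e-11). In control mice with STZ it fell by 0.25 ± 0.07 on the log2 scale (edgeR adjusted p = 0.0125), a call that was lost without the 4 libraries apart on the second component (log2 −0.21, adjusted p = 0.0689). In cKOt mice the log2 difference with STZ was −0.19 and did not pass (edgeR adjusted p = 0.0745).

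Alas1, which makes 5-aminolevulinate for heme (ENSMUSG00000032786, chr9:106233455-106248654, minus strand), ran from 133.0 to 180.6 CPM in PBS-control (median 162.6) and from 61.1 to 137.9 CPM in PBS-cKOt (median 96.9). With STZ it ran from 124.2 to 225.4 CPM in control (median 163.6) and from 69.3 to 122.9 CPM in cKOt (median 93.8). The PBS groups overlapped slightly and the STZ groups did not. The fall in cKOt was 1.70-fold in PBS mice (log2 −0.76 ± 0.13, SE; edgeR adjusted p = 1.21e-05) and 1.79-fold in STZ mice (log2 −0.84 ± 0.13; edgeR adjusted p = 2.6e-06). With STZ the log2 differences were 0.04 in control mice and −0.03 in cKOt mice (edgeR adjusted p = 0.862 and 0.915). The ratio of Por to Alas1 did not pass between genotypes. Its log2 difference was −0.05 ± 0.09 in PBS mice and 0.05 ± 0.13 in STZ mice (SE; exact permutation, adjusted p = 0.665 and 0.704). In control mice the ratio fell by 0.27 on the log2 scale with STZ (exact permutation, adjusted p = 0.0371).

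Ces1g, Ces1d and Ces1f lie in one cluster on chromosome 8 and code for carboxylesterases of the same subfamily, and reads that aligned to more than 1 place were not assigned. Ces1g (ENSMUSG00000057074, chr8:93302369-93337308, minus strand) is shown with the stretch before its RefSeq start because it holds the D-box letters TTATGTAA, 232 bases before the start. The stretch is chr8:93337309-93337459 of GRCm38.p6, minus strand, with the match in capitals. It stops where annotated exons begin, short of the RefSeq start from which the 232 bases are counted.
Ces1g: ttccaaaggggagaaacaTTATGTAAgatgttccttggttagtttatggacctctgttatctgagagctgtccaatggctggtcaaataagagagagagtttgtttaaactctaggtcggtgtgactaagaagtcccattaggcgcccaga
The search used TTATGTAA and TTACGTAA on both strands, which 1.056% of the 32851 windows held, and Ces1g was the only one of the 6 genes with a match. No match in a window says only that these letters are not in those 300 bases.

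Ces1g was the lowest of the 3, with 3.42 to 7.94 CPM in PBS-control (median 6.16) and 0.750 to 1.62 CPM in PBS-cKOt (median 1.14). With STZ it ran from 1.36 to 4.47 CPM in control (median 2.07) and from 0.285 to 1.20 CPM in cKOt (median 0.680). Neither pair of groups overlapped. It was 4.96-fold lower in cKOt in PBS mice (log2 −2.31 ± 0.22, SE; edgeR adjusted p = 7.11e-11) and 3.44-fold lower in STZ mice (log2 −1.78 ± 0.24; edgeR adjusted p = 3.34e-07). STZ lowered it 2.31-fold in control mice (log2 −1.21 ± 0.20; edgeR adjusted p = 5.97e-05). In cKOt mice the log2 difference with STZ was −0.68 ± 0.26 and did not pass (edgeR adjusted p = 0.0852), although it passed with DESeq2 (adjusted p = 0.0459) and with the replicate block (adjusted p = 0.0403). The interaction did not pass (log2 0.53, edgeR adjusted p = 0.465).

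Ces1d, also known as carboxylesterase 3 or triacylglycerol hydrolase (ENSMUSG00000056973, chr8:93166068-93197838, minus strand), had the largest genotype difference of the 8 genes. It ran from 272.1 to 465.4 CPM in PBS-control (median 378.8) and from 38.4 to 104.7 CPM in PBS-cKOt (median 60.9). With STZ it ran from 206.3 to 288.6 CPM in control (median 269.8) and from 18.7 to 38.9 CPM in cKOt (median 28.2). Neither pair of groups overlapped, and PBS-cKOt and STZ-cKOt met only at their edges. Ces1d was 5.46-fold lower in cKOt in PBS mice (log2 −2.45 ± 0.14, SE; edgeR adjusted p = 1.58e-16) and 8.55-fold lower in STZ mice (log2 −3.10 ± 0.15; edgeR adjusted p = 5.95e-19). STZ lowered it 1.46-fold in control mice (log2 −0.54 ± 0.14; edgeR adjusted p = 0.00677) and 2.28-fold in cKOt mice (log2 −1.19 ± 0.14; edgeR adjusted p = 1.89e-07). The difference between these STZ effects was −0.65 on the log2 scale (unadjusted p = 0.00214) and did not pass adjustment over all genes (edgeR adjusted p = 0.323). In that interaction test 0.0448% of tested genes, 7 genes, were called, and none of the 8 genes was among them. Gm45909, a transcript within Ces1d on the same strand with no shared exonic base, went from 2.51 CPM in PBS-control to 0.189 CPM in PBS-cKOt.

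Ces1f (ENSMUSG00000031725, chr8:93256236-93279747, minus strand) was the highest of the 3 and fell least. It ran from 781.1 to 1162 CPM in PBS-control (median 963.9) and from 562.2 to 864.7 CPM in PBS-cKOt (median 747.8). With STZ it ran from 568.7 to 798.2 CPM in control (median 689.4) and from 363.7 to 627.2 CPM in cKOt (median 509.4). Both pairs of groups overlapped. The log2 difference between genotypes was −0.39 ± 0.08 in PBS mice and −0.48 ± 0.08 in STZ mice (SE; edgeR adjusted p = 0.000674 and 4.42e-05). With STZ the log2 difference was −0.49 ± 0.08 in control mice and −0.58 ± 0.08 in cKOt mice (edgeR adjusted p = 0.000142 and 1.06e-05).

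Per kb of exon the 3 carboxylesterases summed to 459.4 ± 45.8 CPM in PBS-control against 258.5 ± 34.4 CPM in PBS-cKOt, and to 323.0 ± 27.7 CPM in STZ-control against 166.7 ± 26.0 CPM in STZ-cKOt (SD, n = 9 each). Ces1f took 65.2% and 88.8% of the PBS sums and 66.2% and 92.3% of the STZ sums. Ces1d took 34.25% and 10.98% of the PBS sums and 33.45% and 7.56% of the STZ sums. Ces1g took at most 0.517% on average. The log2 ratio of Ces1d to Ces1f differed (cKOt minus control) by −2.11 in PBS mice and by −2.63 in STZ mice (exact permutation, adjusted p = 0.000165 in both), and with STZ in cKOt mice by −0.57 (exact permutation, adjusted p = 0.00182). Ces1g to Ces1d did not pass between genotypes in PBS mice (log2 0.23 ± 0.20, SE; exact permutation, adjusted p = 0.392). In STZ mice that ratio was higher in cKOt by 1.33 (exact permutation, adjusted p = 0.00104). Ces1g to Ces1f differed by −1.89 and −1.30 (exact permutation, adjusted p = 0.000165 and 0.00064).

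**Figure D3:**
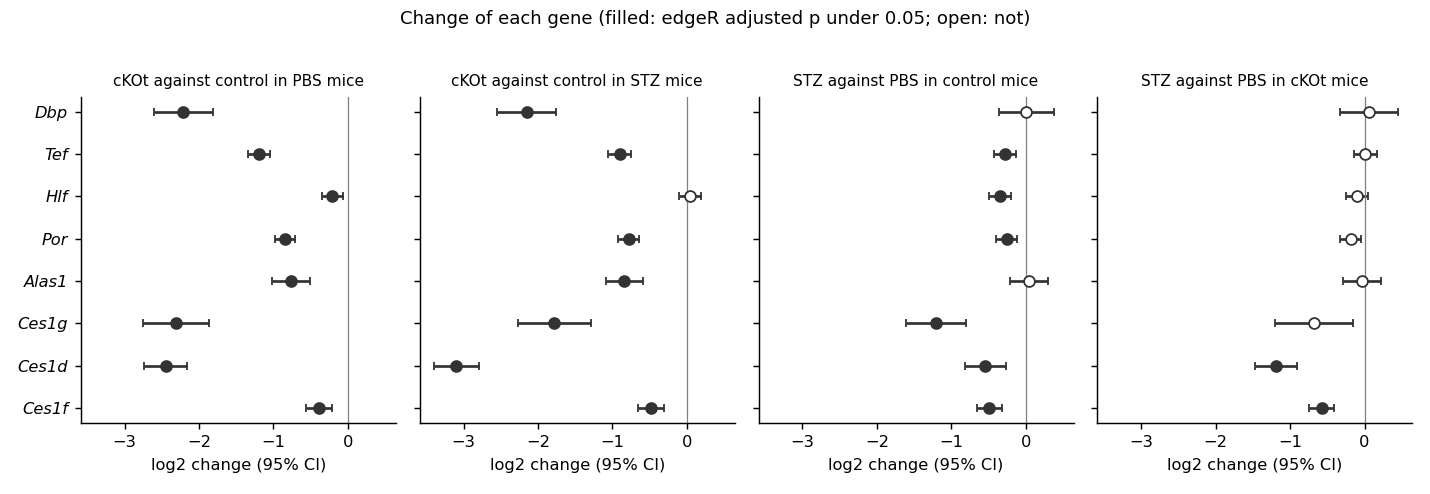
Log2 difference (horizontal axis, points with 95% confidence intervals) of the 8 genes in the 4 comparisons, filled where the edgeR adjusted p was under 0.05. Ces1d, Ces1g and Dbp lie farthest to the left in both genotype comparisons, and Hlf lies at 0.04 in STZ mice.

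The library labelled STZ-control 2 split the 8 genes. The Dbp level there, 22.1 CPM, lay inside the STZ-cKOt range. The Tef level of 258.1 CPM and the Nfil3 level of 12.0 CPM lay between both STZ groups. Por at 259.5 CPM, Ces1d at 227.0 CPM and Ces1f at 650.9 CPM lay within the range of the other 8 STZ-control libraries and above all STZ-cKOt libraries. Hlf at 113.0 CPM lay within both ranges. Alas1 at 124.2 CPM and Ces1g at 1.36 CPM lay just below the other 8 STZ-control libraries and above all STZ-cKOt libraries. In this library Dbp was thus at the cKOt level while Ces1d was not. What sets this library apart was not tested.

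**Figure D4:**
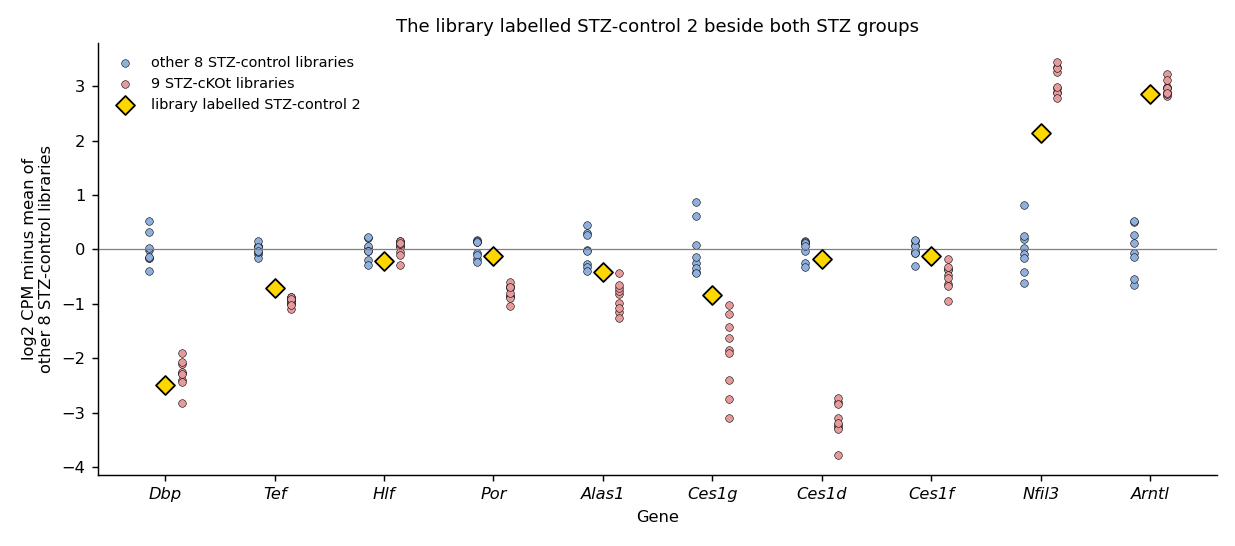
Log2 CPM of 8 genes, Nfil3 and Arntl in the STZ libraries, relative to the mean of the 8 STZ-control libraries other than number 2 (vertical axis). The library labelled STZ-control 2 (gold diamond) lies at −2.49 for Dbp, where the STZ-cKOt mean lies at −2.29, and at −0.182 for Ces1d, where the STZ-cKOt mean lies at −3.14.

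Among the 28 pairs of the 8 genes, 3 varied together between mice of the same group by Pearson's r on deviations from group means over 36 libraries (permutation tests within groups, adjusted over the 28 pairs). These were Tef with Hlf (r = 0.511, permutation adjusted p = 0.027), Por with Alas1 (r = 0.539, permutation adjusted p = 0.027) and Ces1d with Ces1f (r = 0.556, permutation adjusted p = 0.0246). By Spearman's rho (0.507, 0.48 and 0.487) none of the 3 passed (permutation adjusted p = 0.0528 each). Leaving out the 2 libraries farthest from the median gave r of 0.525, 0.456 and 0.332. Dbp with Tef had the highest r of the 28, 0.614, and did not pass (permutation adjusted p = 0.274). It rested on STZ-control 2, without which r was 0.0311. No pair of a factor with a target passed. The slope of log2 CPM on log2 exon length, a measure that differed between libraries, correlated within groups with Dbp (r = −0.593), Tef (r = 0.533) and Hlf (r = 0.398) over 35 libraries, given as a description. Among the targets r was −0.372 for Ces1f, 0.295 for Alas1, −0.166 for Ces1d, 0.14 for Ces1g and 0.114 for Por. Its part in the relations was not tested.

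The genes most like each of 4 members in their deviations from group means, over the 35 libraries other than STZ-control 2 and among 11917 genes, were as follows, as a description. For Dbp they were Gnptg (r = 0.776), Gps2 (0.76) and Alkbh6 (0.759). For Tef they were Ubr2 (r = 0.802), Cbl (0.792) and Lrrc58 (0.782). Hlf was closest to Snx18 (r = 0.792), Plscr4 (0.732) and Fam120a (0.725), and Por to Dctn1 (r = 0.853), Ppp6r1 (0.824) and Dnm2 (0.809). The libraries differed in depth and in the length slope above, and all genes compared come from the same libraries.

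Other genes of electron transfer to P450s, microsomal and mitochondrial, were listed beside Por. Of 8 tested, 2 were lower and 0 higher in cKOt in PBS mice, with a median log2 difference of −0.11. In STZ mice 2 were lower (Cyb5a and Cyb5r1) and 1 higher (Pgrmc1). The shares over all tested genes were 12.5% lower and 10.9% higher in PBS mice, and 10.1% and 9.52% in STZ mice. Cyb5b, a cytochrome b5 of the outer mitochondrial membrane, fell by 0.21 on the log2 scale, and Fdx1, a mitochondrial ferredoxin, by 0.20 (edgeR adjusted p = 0.0406 and 0.0439). In PBS mice Cyb5r1 and Fdxr had log2 differences of −0.15 and 0.29 and did not pass (edgeR adjusted p = 0.0521 and 0.0626).

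Of 27 tested microsomal P450s, which take their electrons from POR, 9 were lower and 4 higher in cKOt in PBS mice, and 8 lower and 4 higher in STZ mice. The median log2 difference in PBS mice was 0.03. Over all tested genes the shares were 12.5% lower and 10.9% higher in PBS mice, and 10.1% and 9.52% in STZ mice. Cyp2a5, a coumarin hydroxylase, went from 116.3 ± 32.3 CPM in PBS-control to 7.64 ± 2.59 CPM in PBS-cKOt, and Cyp2a4, a steroid hydroxylase, from 567.2 ± 112.7 to 74.7 ± 19.0 CPM (SD, n = 9 each; edgeR adjusted p = 1.35e-16 and 1.32e-16). Cyp4a12a and Cyp4a12b, fatty acid hydroxylases, fell by 3.08 and 1.81 on the log2 scale (edgeR adjusted p = 9.04e-09 and 1.33e-09). Each of these pairs is nearly identical in sequence, so the split of reads within a pair is uncertain. Cyp2a4 and Cyp2a5 were also the only genes of the 8 lists called in the interaction test (log2 −1.20 and −1.57, edgeR adjusted p = 0.0233 and 0.0388). Cyp2a4 fell with STZ by 1.29 on the log2 scale in cKOt mice (edgeR adjusted p = 7.71e-07) and differed by −0.10 in control mice (edgeR adjusted p = 0.735).

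Around Alas1, 2 of 17 tested genes of heme synthesis and breakdown were lower and 2 higher in cKOt in PBS mice. Their median log2 difference was −0.03. Of all tested genes 12.5% were called lower and 10.9% higher in that comparison. Clpx, a mitochondrial unfoldase that acts on ALAS protein, went from 134.4 to 350.0 CPM (log2 1.38 ± 0.08, SE; edgeR adjusted p = 1.46e-16). In STZ mice it rose by 1.39 (edgeR adjusted p = 1.73e-16). Hmox1, heme oxygenase, fell by 0.89 on the log2 scale (edgeR adjusted p = 2.14e-06). Of the later synthetic steps Cpox fell by 0.38 and Ppox rose by 0.34 in PBS mice (edgeR adjusted p = 0.0107 and 0.00381), and neither passed in STZ mice (edgeR adjusted p = 0.189 and 0.557).

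Of 7 tested carboxylesterases outside the 3 above, 1 was lower in cKOt in both treatments, with none higher. The share of all tested genes called lower was 12.5% in PBS mice and 10.1% in STZ mice. The lower gene, Ces2c, fell by 0.54 in PBS mice and by 0.52 in STZ mice on the log2 scale (edgeR adjusted p = 1.41e-05 and 2.58e-05). Ces1e, in the same subfamily as Ces1d, had a log2 difference of −0.20 in PBS mice and did not pass (edgeR adjusted p = 0.103). Ces2g and Ces2h did not pass either (log2 −0.31 and 0.34).

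Among 29 tested conjugation and other detoxification enzymes, 4 were lower and 6 higher in cKOt in PBS mice, and 6 lower and 5 higher in STZ mice. All tested genes gave 12.5% lower and 10.9% higher in PBS mice, and 10.1% and 9.52% in STZ mice. Gsta3, a glutathione transferase, fell by 1.10 on the log2 scale while Gstm7, of another class, rose by 1.19 (edgeR adjusted p = 2.96e-09 and 3.88e-10). Ephx2, soluble epoxide hydrolase, fell by 0.51 and Fmo4, a flavin monooxygenase, rose by 0.61 (edgeR adjusted p = 3.34e-07 and 1.07e-06). Of 11 xenobiotic receptors and C/EBP factors, 2 were lower and 3 higher in PBS mice, beside 12.5% and 10.9% of all tested genes. Nr1i2, the pregnane X receptor, rose by 0.86 and Cebpb by 0.71, and Rxra fell by 0.30 and Cebpg by 0.24 (edgeR adjusted p = 2.91e-06, 0.00059, 0.00143 and 0.00373).

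Some markers of proximal tubule moved with the genotype and with STZ. Of 10 markers, 4 were lower in cKOt in PBS mice and 5 in STZ mice, where 12.5% and 10.1% of all tested genes were called lower. With STZ 4 were lower in control mice and 5 in cKOt mice, where 5.93% and 5.63% of all tested genes were called lower. None of the 10 was higher in these comparisons. Their median sum was 17250 CPM in PBS-control against 15000 CPM in PBS-cKOt, and 13400 CPM in STZ-control against 12070 CPM in STZ-cKOt. The markers called in PBS mice were Slc13a3, Miox, Slc22a6 and Slc27a2. Those not called there had log2 differences from −0.26 (Slc7a13) to 0.16 (Slc5a2), with Slc34a1 at 0.0028. The fall of the sum was thus not shared by all markers. In whole kidney, fewer cells of a type and less RNA per cell cannot be told apart, and neither was tested. Markers of other cells moved too. In cKOt in PBS mice 4 of 5 fibroblast and mural cell markers were lower, with median sums of 164.6 CPM in PBS-control and 124.9 CPM in PBS-cKOt. In STZ mice 1 of the 5 was lower, Acta2, which was not called in PBS mice. Of 5 macrophage markers 3 were lower in cKOt in STZ mice and 1 in PBS mice. The shares of all tested genes called lower were 12.5% in PBS mice and 10.1% in STZ mice. With STZ in control mice 3 of 4 distal convoluted tubule markers were higher, where 6.34% of all tested genes were called higher. Slc12a3 was not called there (log2 −0.13). The part of these markers in the results above was not tested. Adipocyte markers, given because Ces1d is also abundant in fat, summed to a median of 13.8 CPM in PBS-control with one library at 164.9 CPM, and to 6.32 CPM in PBS-cKOt. The 4 PBS-control libraries with over 4 CPM of Adipoq had 272.1 to 396.2 CPM of Ces1d, and the other 5 had 321.9 to 465.4 CPM. In PBS-cKOt the 3 libraries with over 4 CPM of Adipoq had 59.4 to 104.7 CPM of Ces1d, and the other 6 had 38.4 to 93.1 CPM. The ranges overlapped in both groups, and the part of fat in the Ces1d result was not tested. Hepatocyte markers summed to medians of 231.4 CPM in PBS-control and 332.4 CPM in PBS-cKOt, and of 170.8 CPM in STZ-control and 387.3 CPM in STZ-cKOt. The members went both ways. In PBS mice Fga and Apoh were higher and Alb and Serpina1a lower in cKOt, 2 of 6 each way. In STZ mice 4 were higher and 2 lower. Of all tested genes 10.9% in PBS mice and 9.52% in STZ mice were called higher, and 12.5% and 10.1% lower. Fga went from a median of 15.5 CPM in PBS-control to 141.9 CPM in PBS-cKOt. Serpina1a went from 23.2 to 8.06 CPM. Alb fell as well, with medians of 8.81 and 8.76 CPM in PBS-control and STZ-control and of 1.42 and 1.12 CPM in PBS-cKOt and STZ-cKOt.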

How the data were processed

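Each of 36 libraries, from a separate mouse, had a file of raw read counts per gene, deposited by the authors. Tools named in the submitters' processing notes are HTSeq 0.9.1, STAR 2.5.3a and cutadapt 1.8, with the GRCm38 genome. The strand option and the annotation release that were used are not given in the sources used here. All 5 entries for reads in no gene were left out. Reads not aligned uniquely, between 30.87% and 42.81% per library, were among them. Groups came from the sample titles. Counts were fitted with edgeR 4.0.16 (filterByExpr, TMM, quasi-likelihood F tests, 1 mean per group over 36 libraries, 32 residual degrees of freedom). Benjamini-Hochberg adjustment ran over 15637 genes in each contrast, with a threshold of 0.05. CPM used TMM library sizes, and CPM per kb used merged exon lengths of GENCODE M21 (GRCm38). Ratios used a prior of 0.5 counts and exact permutation tests. Relations used 100000 permutations within groups, so the smallest p is 1e-05. Promoter stretches came from RefSeq and leave out annotated exons. The genes, the lists and the libraries left out were chosen with earlier results of these data known. One list is not reported here. From each other list the text names up to 4 genes with the smallest adjusted p in PBS mice and a mean of at least 1 CPM (all of lists of 5 or fewer), and the 3 genes most like Dbp, Tef, Hlf and Por among those with a mean of at least 2 CPM. Sphk2, Gm45909, Cyb5a, Pgrmc1, the cell type markers named and the interaction results of Cyp2a4 and Cyp2a5 were singled out after their values were seen. Alternatives were DESeq2 1.42.0, its size factors, limma 3.58.1 voom, other filters, 2-group fits, a replicate block and libraries left out.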

Additional observations from a re-analysis of the deposited data

Results flagged for a closer look

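In the group of 9 STZ-control libraries, 1 library lay far from the other 8 in 3 genes, by the gap to its nearest neighbour as a share of the group's range. In the library labelled STZ-control 2, Tef was 258.1 CPM (375.5 to 469.3 CPM in the other 8), Arntl was 13.37 CPM (1.18 to 2.64 CPM) and Nfil3 was 11.97 CPM (1.77 to 4.78 CPM). Such a gap was looked for in 40 sets of 9 values, and chance gives one in about 1 in 20 groups. Some gaps are therefore due by chance among the 40 sets. All 3 gaps came from the same library, so they are not independent.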

How the results depend on the processing

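Over 352 values of single members under 9 alternatives, 338 kept their direction and their side of the threshold. In the genotype comparisons 141 of 144 did. The exceptions there were Hlf in PBS mice, at −0.19 on the log2 scale with no filter, −0.20 without the 4 libraries apart on the second component (STZ-control 7 and 8, PBS-cKOt 1 and 3) and −0.16 with voom. With STZ in control mice, Dbp changed sign around 0, to −0.0004 with the size factors of DESeq2, −0.0449 with the replicate block, −0.18 without the 4 libraries and −0.26 with voom, and Por was −0.21 without the 4 libraries. With STZ in cKOt mice, Tef was −0.0145 without the 4 libraries and −0.0017 with voom, Por passed with voom (−0.19), and Ces1g passed with the replicate block (−0.72) and with DESeq2 (−0.69). The Dbp interaction was −0.0812 without STZ-control 2. The interaction called 15 genes with voom and 20 with DESeq2 against 7. Without STZ-control 2 the relations of Dbp with Hlf (r = −0.181), Dbp with Ces1g (−0.0154) and Tef with Ces1f (−0.0665) changed sign, none of them past the threshold. The cause was not tested in any of these. The replicate numbers did not pair the libraries. Of 54 same-numbered pairs 20 correlated over 0.1 (median 0.0134), and 4 of 36 libraries correlated best with their own number. With the replicate block 3738, 3128, 2039, 1914 and 5 genes were called in the 2 genotype, the 2 STZ and the interaction comparisons. Ces1g had between 6 and 145 reads per library, which limits its precision.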
